A study of Mus musculus with 8 samples.

Results

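The 39 autophagy and lysosome genes described here are mouse genes fixed by name, 39 of the 23420 gene symbols in the deposited count tables. The list was drawn up by known roles, with earlier results of these data in view, and comprises 5 genes of autophagy start and nucleation, 4 of the ATG conjugation machinery, 4 of the ATG8 family, 3 cargo receptors, 2 transcription factors, 5 lysosomal membrane proteins, 5 cathepsins and peptidases, 8 glycosidases and lipid-handling proteins and 3 proton pump subunits. RNA was sequenced from embryonic stem cells (ESCs) with and without Importin-13 (IPO13), a nuclear transport receptor that carries cargo proteins both into and out of the nucleus. The 4 groups of 2 libraries each were untreated IPO13+/+, stressed IPO13+/+, untreated IPO13-/- and stressed IPO13-/- cells, and stress was 125 µM H2O2 for 1 h with a further 2 h of recovery in clean medium. All cells derived from day 5 blastocysts on a 129 x C57BL/6 background and were grown feeder-free on gelatin with LIF, the cytokine that holds ESCs in self-renewal. The sources speak of 1 cell line per genotype, so line and genotype cannot be told apart, and nothing says that the libraries of a group came from separate cultures, so p-values measure only the spread between these libraries.

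Autophagy wraps cytoplasmic cargo in a double membrane, the autophagosome, which forms through the ULK1 kinase, the BECN1 lipid kinase complex and the ATG proteins that attach members of the ATG8 family (LC3 and GABARAP) to lipid. Cargo receptors such as SQSTM1 bridge ubiquitinated cargo and ATG8 proteins, and the autophagosome then fuses with the lysosome, where cathepsins, glycosidases and lipases degrade its content at the low pH set by the V-type proton pump. The transcription factors TFEB and TFE3 move to the nucleus when lysosomal or nutrient signalling falls, and bind E-box motifs in the promoters of many lysosomal genes. In ESCs, TFE3 is also known for its part in the exit from the naive state.

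The reads counted on genes ranged from 60397877 to 73789079 per library. Ipo13 stood at 70.3 and 68.3 CPM (reads per library total after scaling with TMM factors, as all levels here) in untreated IPO13+/+ cells, at 72.4 and 69.3 in stressed IPO13+/+ cells, at 25.95 and 25.05 in untreated IPO13-/- cells and at 24.9 and 25.9 in stressed IPO13-/- cells, so its RNA was lower under both knockout labels but not absent. The 8 ESC markers examined summed to between 5751 and 6914 CPM, with 6446 to 6914 in IPO13+/+ and 5751 to 5937 in IPO13-/- libraries. Of these, Dppa5a stood at 1915 and 1970 CPM in untreated IPO13+/+ and 1262 and 1326 in untreated IPO13-/- cells. After stress it stood at 2024 and 2065 against 1442 and 1513 CPM. By the edgeR test used below, it alone differed between stressed genotypes. Between untreated genotypes, Dppa5a, Esrrb, Zfp42 and Pou5f1 were lower in IPO13-/- cells, Nanog and Klf4 were higher, and Sox2 and Tdgf1 did not pass. After stress, Nanog, Tdgf1, Klf4 and Sox2 fell in both genotypes and Zfp42 in IPO13+/+ cells only. Esrrb, Dppa5a and Pou5f1 rose in IPO13-/- cells only. The stress response of Esrrb and Zfp42 differed between genotypes, by 0.21 and 0.22 on the log2 scale (edgeR FDR 0.02 and 0.048). That of the other ESC markers did not pass. Markers of other cells were low in every library. The 10 of primitive and visceral endoderm summed to between 19.0 and 25.96 CPM, the 7 of trophectoderm to between 14.9 and 26.8 and the 7 of fibroblasts to between 6.29 and 9.23. The 6 macrophage markers summed to between 10.5 and 11.4 CPM without stress and to between 15.7 and 17.2 after it, of which Cd68, itself a late endosomal and lysosomal protein, made up 10.4 to 17.1, while the macrophage markers Ptprc and Csf1r lay at or below 0.114. The part of these shifts in the results below was not tested. In bulk RNA, fewer cells that express a gene and less RNA of it per cell cannot be told apart.

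All 39 genes were detected in every library, with between 131 and 52531 reads, so none was lost to the filter of at least 1 count in any library. Levels of different genes were compared per kb of exon, in untreated IPO13+/+ cells. Lamp1, the main lysosomal membrane glycoprotein, was the highest at 275 CPM per kb, followed by Ctsd at 187 and Sqstm1 at 135. The lowest were Neu3 at 0.599, Optn at 1.21 and Wipi1 at 1.39 CPM per kb.

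**Figure D1:**
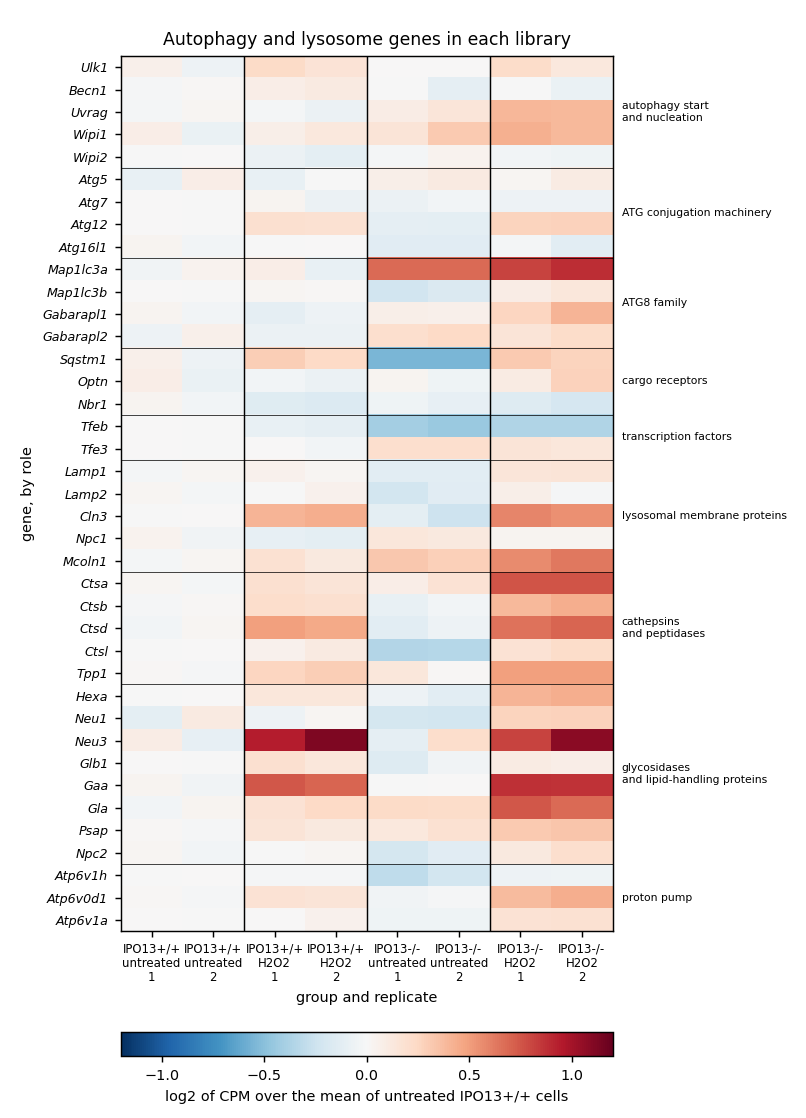
Each row is 1 of the 39 genes, ordered by role, and each column 1 of the 8 libraries, with colour giving log2 of the CPM over the mean of untreated IPO13+/+ cells. The columns of stressed IPO13-/- cells are red over most lysosomal rows, and Sqstm1 is bluest in untreated IPO13-/- cells. The colours are not the test of stressed against untreated IPO13-/- cells. In that test 5 of 5 cathepsins and peptidases and 8 of 8 glycosidases and lipid-handling proteins rose, beside 14.9% of all genes.

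The first question was how H2O2 changed these genes in cells with IPO13. In IPO13+/+ ESCs, 16 of the 39 genes rose and 1 fell at an FDR below 0.05, against 11.5% and 13.8% of all 19424 genes tested (edgeR quasi-likelihood test on counts, adjusted by Benjamini-Hochberg over all of them). Those that rose were mainly lysosomal, with 4 of 5 cathepsins and peptidases and 6 of 8 glycosidases and lipid-handling proteins but 0 of 4 ATG8 family members. The median log2 fold change over the 39 genes was 0.04, beside -0.00109 over all genes. All genes tested include many with few reads, which can hardly be called, and 15191 of them passed a stricter expression filter (filterByExpr). The 39 genes had 131 reads or more in every library. Shares over genes of similar level were not computed, here or below. Only Neu3 rose 2-fold or more, a share of 2.56% beside 2.75% of all genes. The count of genes that rose was 10 without the first stressed IPO13+/+ library and 4 when a change of more than 1.2-fold was required.

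The same question was then asked of cells without IPO13. In IPO13-/- ESCs, 27 of the 39 genes rose and 0 fell after H2O2, against 14.9% and 14.4% of all genes, and the median log2 fold change was 0.27, beside 0 over all genes. The genes that rose comprised 5 of 5 cathepsins and peptidases, 8 of 8 glycosidases and lipid-handling proteins, 3 of 3 proton pump subunits, 4 of 5 lysosomal membrane proteins and 3 of 4 ATG8 family members, but 1 of 4 genes of the conjugation machinery and 0 of 2 transcription factors. Of the 12 genes that did not pass, 7 had negative log2 fold changes, from -0.10 for Nbr1 to -0.01 for Atg7. All 16 genes that rose in IPO13+/+ cells were among the 27 that rose in IPO13-/- cells, and 11 passed in IPO13-/- cells alone. No gene reached 2-fold, against 2.52% of all genes that rose by that much. With a least change of 1.2-fold the count of genes that rose was 14.

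**Figure D2:**
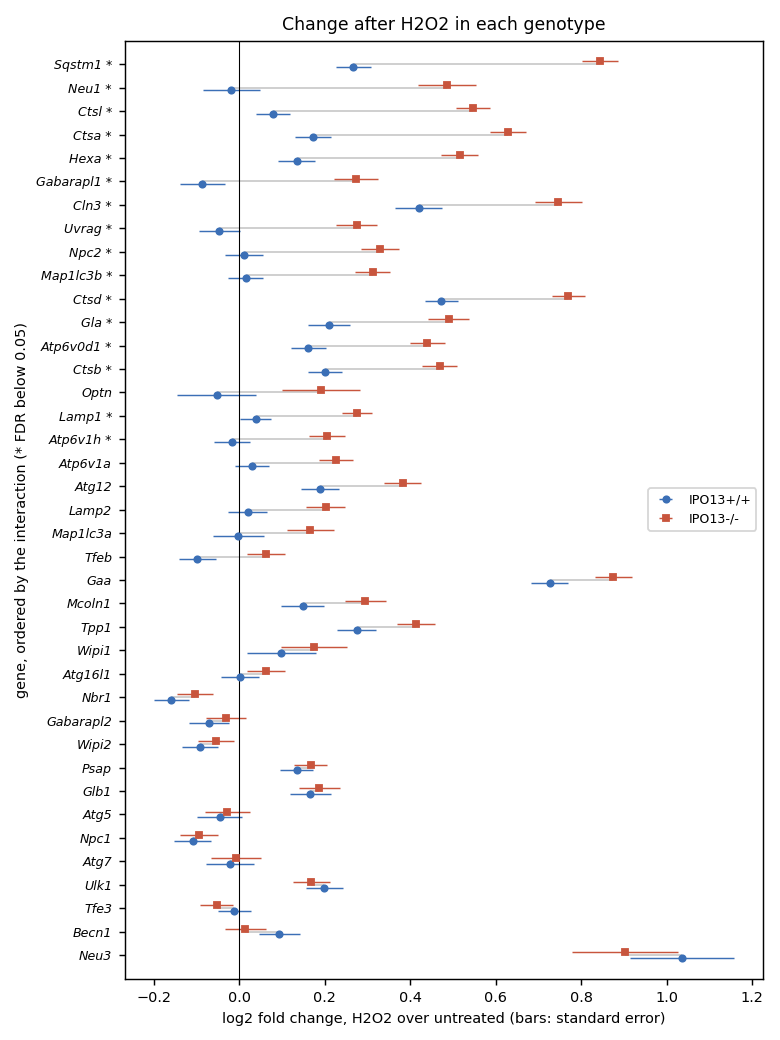
Points give each gene's log2 fold change after H2O2 in IPO13+/+ and in IPO13-/- cells, with bars of 1 SE from the edgeR fit, and genes are ordered by the difference between the genotypes. Sqstm1 shows the widest gap (0.27 and 0.84), while Neu3 (1.03 and 0.90) and Gaa (0.73 and 0.88) lie far right in both.

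Whether the 2 genotypes differed in their response was tested as an interaction, the stress response of IPO13-/- cells minus that of IPO13+/+ cells. The interaction passed an FDR of 0.05 for 16 of the 39 genes, all with the larger rise in IPO13-/- cells, and for 0 in the other direction, against 2.01% and 0.705% of all genes. These were Sqstm1, Neu1, Ctsl, Ctsa, Hexa, Gabarapl1, Cln3, Uvrag, Npc2, Map1lc3b, Ctsd, Gla, Atp6v0d1, Ctsb, Lamp1 and Atp6v1h, with differences between 0.58 and 0.22 on the log2 scale. The point estimate was positive for 35 of the 39 genes, but for 26 when libraries were scaled by their totals without TMM factors, a scaling under which 11 genes passed. The number of genes that passed was also smaller without single libraries, being 8 without the first or without the second stressed IPO13+/+ library, 4 and 7 without the first and second untreated IPO13-/- library, and 8 without the second stressed IPO13-/- library. Sqstm1, Ctsa, Ctsl and Hexa passed without any 1 library, and Sqstm1 and Ctsl alone passed when the difference had to exceed 1.2-fold.

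Genotype was compared within each condition. Without stress, 9 of the 39 genes were higher and 12 lower in IPO13-/- than in IPO13+/+ cells, against 18.7% and 19.4% of all genes, a split that became 13 higher and 5 lower with library totals in place of TMM factors. After stress, 24 were higher and 2 lower, against 19.1% and 17.5% of all genes. The median log2 difference was -0.05 without stress and 0.15 after it, beside 0 over all genes in both. Wipi1, Map1lc3a, Gabarapl2, Tfe3, Npc1, Mcoln1, Ctsa, Gla and Psap were higher in IPO13-/- cells in both conditions, and Tfeb was lower in both. Lamp1, Cln3, Ctsl, Neu1 and Npc2 were lower without stress and higher after it, but in none of these 5 genes did both calls hold without every single library. Without stress, the call was lost for Lamp1 without the first or the second untreated IPO13-/- library, for Cln3 without the second, for Npc2 without the first, and for Neu1 without either of them or the second untreated IPO13+/+ library, where the log2 difference of Neu1 shrank from -0.22 to as little as -0.10. After stress, it was lost for Lamp1 and Cln3 without any 1 of the 4 stressed libraries, and for Ctsl and Npc2 without the first stressed IPO13+/+ or the second stressed IPO13-/- library. Among the 9 genes higher in both conditions, the untreated calls of Wipi1, Npc1 and Ctsa and the stressed calls of Tfe3 and Npc1 were each lost without 1 library or another. The 12 lower genes became 6 and 7 without the first and the second untreated IPO13-/- library.

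**Figure D3:**
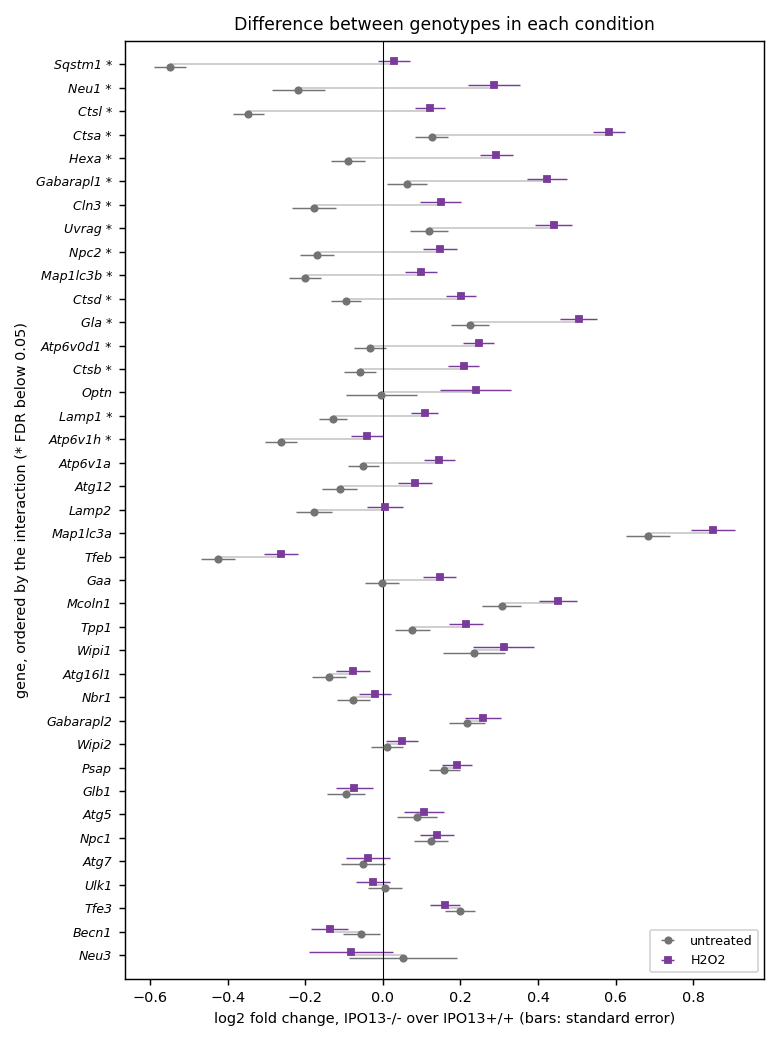
Points give each gene's log2 difference between IPO13-/- and IPO13+/+ cells, without and after H2O2, with bars of 1 SE from the edgeR fit. Map1lc3a lies far right in both conditions (0.68 and 0.85), Tfeb left in both (-0.42 and -0.26), and Sqstm1 moves from -0.55 to 0.03.

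Among genes of autophagy start and nucleation, Ulk1, the kinase that starts autophagosome formation, rose in both genotypes. It stood at 255 and 235 CPM in untreated IPO13+/+ cells, 287 and 276 after stress, 246 and 246 in untreated IPO13-/- cells, and 285 and 268 after stress. The log2 fold changes were 0.20 ± 0.04 and 0.17 ± 0.04 (edgeR FDR 0.00095 and 0.0037), and their difference of -0.03 ± 0.06 did not pass (edgeR FDR 0.93). The rise in IPO13-/- cells was lost without the first untreated or the first stressed IPO13-/- library. Becn1, the core of the lipid kinase complex, did not pass in either stress comparison, with log2 fold changes of 0.09 and 0.01, and was slightly lower in stressed IPO13-/- than stressed IPO13+/+ cells (log2 difference -0.14), a call lost without either stressed IPO13+/+ or the second stressed IPO13-/- library. The exons of Becn1 share 43.9% of their length with Cntd1 on the opposite strand, and whether counting used strand is not given in the sources used here.

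Uvrag, at chr7:98885021-99141141 on the minus strand of GRCm38, encodes a partner of BECN1 in the complex that acts in autophagosome and endosome maturation. Its levels were 35.3 and 36.5 CPM in untreated and 35.4 and 34.1 CPM in stressed IPO13+/+ cells, beside 38.2 and 39.8 CPM in untreated and 47.2 and 47.1 CPM in stressed IPO13-/- cells. The IPO13+/+ groups overlapped, whereas both stressed IPO13-/- libraries lay above all others. The log2 fold change was -0.05 ± 0.05 in IPO13+/+ and 0.27 ± 0.05 in IPO13-/- cells (edgeR FDR 0.58 and 5.2e-05), and the interaction of 0.32 ± 0.07 passed (edgeR FDR 0.0068), though not without the second stressed IPO13+/+ or either untreated IPO13-/- library. Gm45187 on the opposite strand shares 17.6% of its exon length. Wipi1 and Wipi2, which read the lipid that this complex makes, passed no stress comparison. Wipi1 was the lower expressed, at 5.81 to 8.25 CPM over the 8 libraries, and was higher in IPO13-/- cells by 0.24 without and 0.31 after stress on the log2 scale.

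In the conjugation machinery, Atg12, the ubiquitin-like protein joined to ATG5, was the single gene that changed after stress. Its log2 fold changes were 0.19 with and 0.38 without IPO13, from 50.7 and 50.3 to 57.7 and 57.4 CPM and from 46.9 and 46.5 to 60.6 and 61.2 CPM. Atg5 and Atg7, the latter the activating enzyme of the conjugation, passed no comparison. Their levels moved only between 51.9 and 59.4 CPM and between 17.8 and 19.1 CPM over all 8 libraries. Atg16l1, which directs ATG8 lipidation to the membrane, had a log2 difference of -0.14 in untreated IPO13-/- cells, lost without the first untreated IPO13+/+ or either untreated IPO13-/- library.

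The 4 ATG8 family members differed in pattern. Map1lc3a, at chr2:155276297-155278073 on the plus strand, was the gene of the 39 with the largest genotype difference. It stood at 20.8 and 21.9 CPM in untreated IPO13+/+ cells, 22.6 and 20.01 after stress, 34.3 and 34.3 in untreated IPO13-/- cells, and 37.3 and 39.6 after stress. All 4 IPO13-/- libraries lay above all 4 IPO13+/+ libraries. The log2 difference was 0.68 ± 0.06 without stress and 0.85 ± 0.06 after it (edgeR FDR 2.2e-10 and 2.9e-12), a 1.60-fold and 1.80-fold excess. Its stress change passed only in IPO13-/- cells (log2 fold change 0.17 ± 0.05, edgeR FDR 0.023), was not called without either untreated or the second stressed IPO13-/- library, and its interaction of 0.17 ± 0.08 did not pass (edgeR FDR 0.32).

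Gabarapl1, at chr6:129533160-129542346 on the plus strand, encodes a GABARAP-like protein. Its levels were 36.7 and 35.1 CPM in untreated IPO13+/+ cells, 33.3 and 34.3 after stress, 37.6 and 37.4 in untreated IPO13-/- cells, and 43.0 and 47.6 after stress. The stressed groups moved apart, the IPO13-/- libraries being the highest of the 8 and the IPO13+/+ libraries the lowest. The log2 fold change of 0.27 ± 0.05 in IPO13-/- cells passed (edgeR FDR 0.00015), that of -0.09 ± 0.05 in IPO13+/+ cells did not (edgeR FDR 0.27), and the interaction was 0.36 ± 0.07 (edgeR FDR 0.0049). That interaction was not called without the first stressed IPO13+/+, either untreated IPO13-/- or the second stressed IPO13-/- library, and 28.3% of the exon length is shared with 1700101I11Rik on the opposite strand. Map1lc3b went from 129 and 128 to 131 and 130 CPM in IPO13+/+ and from 110 and 114 to 137 and 141 CPM in IPO13-/- cells, with an interaction of 0.30 that was lost without the second stressed IPO13+/+, the first untreated IPO13-/- or the second stressed IPO13-/- library. Gabarapl2 did not respond past the threshold in either genotype and was higher in IPO13-/- cells by 0.22 without and 0.26 after stress.

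Sqstm1, at chr11:50199366-50210827 on the minus strand, encodes p62, the receptor that links ubiquitinated proteins to autophagosomes and also holds KEAP1, the inhibitor of the antioxidant factor NRF2. Its levels were 472 and 433 CPM in untreated and 555 and 534 CPM in stressed IPO13+/+ cells, and 309 and 309 CPM in untreated and 564 and 546 CPM in stressed IPO13-/- cells. The stressed groups overlapped, and the untreated IPO13-/- libraries were the lowest of all. The rise was 1.203-fold in IPO13+/+ (log2 fold change 0.27 ± 0.04, edgeR FDR 1.4e-05) and 1.79-fold in IPO13-/- cells (0.84 ± 0.04, edgeR FDR 4.6e-15). The interaction of 0.58 ± 0.06 was the largest of the 39 genes (edgeR FDR 5.3e-07). Untreated IPO13-/- cells were lower by a log2 difference of -0.55 ± 0.04 (edgeR FDR 2.7e-11), and stressed cells differed by 0.03 ± 0.04 (edgeR FDR 0.65). Of its exon length, 17.3% is shared with Mrnip on the opposite strand.

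The other receptors behaved otherwise. Nbr1, which shares the ubiquitin and ATG8 binding of p62, was the only gene of the 39 that fell, from 172 and 164 to 151 and 149 CPM in IPO13+/+ cells (log2 fold change -0.16 ± 0.04, edgeR FDR 0.0051), a call lost without the second stressed library or with only the 4 libraries compared in the fit. In IPO13-/- cells it stood at 162 and 157 CPM before and 151 and 146 CPM after stress (edgeR FDR 0.066). Optn, a receptor for damaged mitochondria and bacteria, lay between 4.31 and 5.51 CPM and passed no stress comparison.

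**Figure D4:**
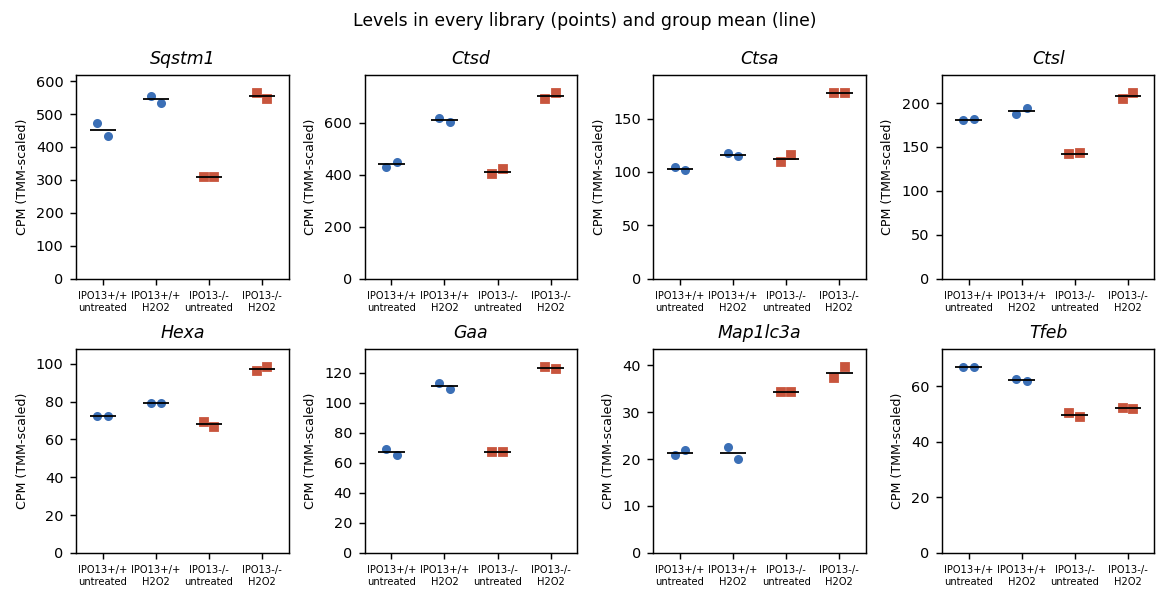
Panels give CPM, TMM-scaled, in each library of Sqstm1, Ctsd, Ctsa, Ctsl, Hexa, Gaa, Map1lc3a and Tfeb as points, by group, with a line at the group mean. The Map1lc3a panel separates by genotype, with 34.3 to 39.6 CPM in IPO13-/- libraries against 20.01 to 22.6 in IPO13+/+ libraries, and the Sqstm1 panel shows the untreated IPO13-/- libraries (309 and 309 CPM) below the rest.

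Neither transcription factor gene passed after stress in either genotype, but both differed between genotypes, in opposite directions. Tfeb, at chr17:47737030-47792419 on the plus strand, stood at 66.7 and 66.7 CPM in untreated and 62.7 and 62.0 CPM in stressed IPO13+/+ cells, against 50.4 and 49.1 CPM in untreated and 52.0 and 51.9 CPM in stressed IPO13-/- cells. Every IPO13-/- library lay below every IPO13+/+ library. The log2 difference was -0.42 ± 0.04 without and -0.26 ± 0.04 after stress (edgeR FDR 1.1e-08 and 2.4e-05). Tfe3, at chrX:7762560-7775202 on the plus strand, stood at 200 and 199.5 CPM in untreated IPO13+/+ cells, 201 and 195 after stress, 229.5 and 229.3 in untreated IPO13-/- cells, and 223 and 219.6 after stress. Here every IPO13-/- library lay above every IPO13+/+ library, by a log2 difference of 0.20 ± 0.04 without and 0.16 ± 0.04 after stress (edgeR FDR 0.00014 and 0.0016). The second of these was not called without the second stressed IPO13+/+ library. RNA levels do not show where the proteins were in the cell.

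TFEB and TFE3 are known to bind an E-box palindrome of the letters TCACGTGA and its core CACGTG. RefSeq promoter sequences on GRCm38.p6, from 250 bases before to 50 bases after a RefSeq start, were at hand for 32 of the 39 genes. A gene could have more than 1 such start, not always at its outer end. It was counted if any of its promoters held the motif. The 8 letters TCACGTGA occurred in 7 of the 32 (21.9%), beside 1.12% of 27025 genes with such a promoter and 7 of 117 (5.98%) genes of the wider pathway lists described at the end. CACGTG, which lies inside TCACGTGA, occurred in 13 (40.6%, beside 8.09%), the longer form with G before and C after TCACGTGA in Cln3 only (beside 0.37%), and TGACNNNGC, the core of the antioxidant response element, in 7 (21.9%, beside 14.0%). Both strands were searched. Because TCACGTGA is its own reverse complement, it reads the same on either strand. The motif is printed here in its setting for 6 of the 7 genes, since these carry the match that the counts rest on, with TCACGTGA in capitals and each window 30 bases long in the gene's own direction.
Ctsa, chr2:164833749-164833778, plus strand: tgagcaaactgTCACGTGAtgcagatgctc
Cln3, chr7:126583340-126583369, minus strand: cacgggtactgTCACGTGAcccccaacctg
Ctsd, chr7:142387908-142387937, minus strand: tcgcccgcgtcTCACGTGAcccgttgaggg
Mcoln1, chr8:3500462-3500491, plus strand: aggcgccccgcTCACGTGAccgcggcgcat
Atp6v0d1, chr8:105566050-105566079, minus strand: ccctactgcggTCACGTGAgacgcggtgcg
Gla, chrX:134601182-134601211, minus strand: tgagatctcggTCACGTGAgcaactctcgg

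The motif began 13, 122, 99, 46, 4 and 195 bases before the RefSeq start of these 6 promoters. Ctsa and Gla each held a second copy, and Atp6v1a held the copy of the seventh gene, 132 bases before its RefSeq start. The Cln3 promoter with the motif (chr7:126583187-126583486) lay inside the gene. Its promoter at the outer end of the gene (chr7:126585768-126586067) did not hold TCACGTGA. The Ctsa and Atp6v1a promoters with the motif also lay inside the gene. The windows of Ctsa, Cln3, Ctsd and Mcoln1 overlap exons annotated to those genes by GENCODE, that of Gla lies in an exon of its neighbour Hnrnph2, and that of Atp6v0d1 lies in no annotated exon. The 7 genes with the motif had a median log2 fold change of 0.49 after stress in IPO13-/- cells (7 rose, where 14.9% of all genes did) and 0.17 in IPO13+/+ cells (6 rose, where 11.5% of all genes did). The 25 genes whose promoter lacked it had medians of 0.20 (16 rose) and 0.02 (8 rose). The interaction passed for 5 of the 7 and 9 of the 25, beside 2.01% of all genes, with medians of 0.28 and 0.15. The 7 are all lysosomal membrane, peptidase, glycosidase or proton pump genes, whereas the 25 include autophagy genes such as Atg5, Atg7 and Map1lc3b. In IPO13-/- cells the median after stress was 0.55 over all 5 cathepsins and peptidases and 0.49 over all 8 glycosidases and lipid-handling proteins. Role and motif cannot be told apart in these counts, and the part of either was not tested. The counts are over genes of known lysosomal or autophagy function, and a match of letters is not evidence of binding in these cells.

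Of the lysosomal membrane proteins, Lamp1 at chr8:13159161-13175338 on the plus strand passed after stress in IPO13-/- cells and not in IPO13+/+ cells. It stood at 726 and 746 CPM in untreated IPO13+/+ cells, 761 and 749 after stress, 673 and 672 in untreated IPO13-/- cells, and 811 and 816 after stress. The IPO13-/- libraries were thus the lowest of the 8 without stress and the highest after it. The log2 fold change was 0.04 ± 0.04 in IPO13+/+ and 0.27 ± 0.04 in IPO13-/- cells (edgeR FDR 0.51 and 6.8e-07), and the interaction was 0.24 ± 0.05 (edgeR FDR 0.0068), a call lost without any 1 of 6 libraries, all but the untreated IPO13+/+ pair. Lamp2, whose protein takes part in fusion of autophagosomes and lysosomes, rose by 0.20 in IPO13-/- cells on the log2 scale, though not without the first untreated IPO13-/- library, and its interaction of 0.18 did not pass.

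Cln3, at chr7:126571207-126585817 on the minus strand and lost in juvenile neuronal ceroid lipofuscinosis, rose in both genotypes. Its levels were 19.9 and 20 CPM in untreated IPO13+/+ cells, 26.4 and 27.0 after stress, 18.4 and 16.8 in untreated IPO13-/- cells, and 30.0 and 29.2 after stress. The log2 fold changes were 0.42 ± 0.05 and 0.75 ± 0.06 (edgeR FDR 1e-06 and 2.2e-11), with all stressed libraries above all untreated ones. The interaction of 0.33 ± 0.08 (edgeR FDR 0.018) was not called with limma-voom, DESeq2 or library totals, nor without any 1 library of the 6 beyond the untreated IPO13+/+ pair.

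Mcoln1, at chr8:3500457-3515232 on the plus strand, encodes the lysosomal calcium channel TRPML1, whose calcium release is known to activate TFEB. Its levels were 28.9 and 29.7 CPM in untreated and 33.2 and 31.7 CPM in stressed IPO13+/+ cells, and 36.6 and 35.7 CPM in untreated and 43.5 and 45.4 CPM in stressed IPO13-/- cells. Genotype separated the libraries completely, and within each genotype the stressed pair was higher. The genotype difference was 0.31 ± 0.05 without and 0.45 ± 0.05 after stress on the log2 scale (edgeR FDR 1.5e-05 and 2.4e-08). Stress raised it by 0.15 ± 0.05 and 0.30 ± 0.05 (edgeR FDR 0.029 and 2.6e-05), and the first of these was lost without the first untreated or either stressed IPO13+/+ library. Npc1, the cholesterol exporter, passed in neither stress comparison and was higher in IPO13-/- cells by 0.12 and 0.14.

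Cathepsins and peptidases, the proteolytic enzymes of the lysosome, rose as a whole in IPO13-/- cells, with log2 fold changes from 0.41 to 0.77 there and from 0.08 to 0.47 in IPO13+/+ cells. Ctsd, the main aspartic protease, lies at chr7:142375911-142388038 on the minus strand. It went from 431 and 448 to 618 and 602 CPM in IPO13+/+ and from 402 and 421 to 689 and 713 CPM in IPO13-/- cells. All stressed libraries were above all untreated ones, and the stressed IPO13-/- pair was the highest. The rises were 1.39-fold and 1.71-fold (log2 fold change 0.47 ± 0.04 and 0.77 ± 0.04, edgeR FDR 2.2e-10 and 7.8e-15). The interaction was 0.30 ± 0.05 (edgeR FDR 0.0018) and was lost without the first untreated IPO13-/- library. Of its exon length, 34.4% is shared with the model Gm49369 on the same strand. Whether the authors' annotation held that model, and how reads in the shared part were counted, is not given in the sources used here.

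Ctsl, a cysteine protease at chr13:64359337-64370890 on the minus strand, differed most between genotypes among the peptidases before stress. It stood at 181 and 182 CPM in untreated IPO13+/+ cells, 188 and 195 after stress, 142 and 143 in untreated IPO13-/- cells, and 205 and 211 after stress. As with Sqstm1, the untreated IPO13-/- pair stood below all other libraries. The untreated difference was -0.35 ± 0.04 and the stressed one 0.12 ± 0.04 on the log2 scale (edgeR FDR 7.5e-08 and 0.017), though the latter was not called without the first stressed IPO13+/+ or the second stressed IPO13-/- library. The log2 fold change after stress was 0.08 ± 0.04 in IPO13+/+ and 0.55 ± 0.04 in IPO13-/- cells (edgeR FDR 0.17 and 1.9e-11), and the interaction was 0.47 ± 0.06 (edgeR FDR 9.6e-06). With library totals or after filterByExpr, the rise in IPO13+/+ cells passed as well. Gm47123 on the opposite strand shares 26.8% of its exon length.

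Ctsa, at chr2:164832873-164841032 on the plus strand, encodes the carboxypeptidase that protects NEU1 and GLB1 in a shared complex. Its levels were 105 and 101 CPM in untreated IPO13+/+ cells, 117 and 115 after stress, 109 and 116 in untreated IPO13-/- cells, and 174 and 174 after stress. Both stressed IPO13-/- libraries lay far above the other 6, which spanned 101 to 117 CPM. The log2 fold changes were 0.17 ± 0.04 and 0.63 ± 0.04 (edgeR FDR 0.0031 and 3.2e-12), the first not called without the first stressed IPO13+/+ library. The interaction was 0.46 ± 0.06 (edgeR FDR 3.4e-05), and stressed cells differed by 0.58 ± 0.04 between genotypes (edgeR FDR 1.4e-11).

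Tpp1, a tripeptidyl peptidase at chr7:105744811-105752235 on the minus strand, rose from 81.8 and 80.2 to 96.5 and 99.4 CPM in IPO13+/+ and from 88.7 and 81.8 to 114 and 114 CPM in IPO13-/- cells. All stressed libraries were higher than all untreated ones. The log2 fold changes were 0.27 ± 0.04 and 0.41 ± 0.04 (edgeR FDR 3e-05 and 3e-08), and the interaction of 0.14 ± 0.06 did not pass (edgeR FDR 0.28). Ctsb, another cysteine protease, rose by 0.20 and 0.47, with an interaction of 0.27 that passed, though not without any 1 of 5 libraries.

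Neu3, at chr7:99811439-99828417 on the minus strand, is a sialidase of gangliosides that acts mainly at the plasma membrane, and differs in this from the lysosomal enzymes. It was counted with 143 and 131 reads in untreated IPO13+/+ cells, 261 and 301 after stress, 141 and 144 in untreated IPO13-/- cells, and 227 and 263 after stress. These correspond to 2.13 and 1.87, 3.84 and 4.36, 1.86 and 2.32, and 3.51 and 4.25 CPM. Stress separated the libraries and genotype did not. The rise was 2.05-fold in IPO13+/+ (log2 fold change 1.03 ± 0.12, edgeR FDR 1.8e-07) and 1.87-fold in IPO13-/- cells (0.90 ± 0.12, edgeR FDR 1.8e-06). Without the second untreated or the second stressed IPO13+/+ library the former fell under 2-fold, and without the second untreated or the first stressed IPO13-/- library the latter exceeded it. The interaction was -0.13 ± 0.18 (edgeR FDR 0.82).

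Gaa, the enzyme that degrades lysosomal glycogen, lies at chr11:119267887-119285454 on the plus strand. It went from 68.9 and 65.4 to 113 and 109 CPM in IPO13+/+ and from 66.9 and 67.2 to 124 and 122 CPM in IPO13-/- cells. The untreated groups overlapped, and the stressed libraries were far above them in both genotypes. The rises were 1.65-fold and 1.83-fold (log2 fold change 0.73 ± 0.04 and 0.88 ± 0.04, edgeR FDR 3e-13 and 4.9e-15), with an interaction of 0.15 ± 0.06 that did not pass (edgeR FDR 0.22).

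Neu1, the lysosomal sialidase, lies at chr17:34931253-34935953 on the plus strand. In contrast to Neu3 it showed no rise in IPO13+/+ cells, with 13.3 and 15.6 CPM before and 13.8 and 14.7 CPM after stress. In IPO13-/- cells it went from 12.5 and 12.4 to 17.3 and 17.4 CPM, so that the IPO13-/- libraries were the lowest and the highest of the 8. The log2 fold change was -0.02 ± 0.07 in IPO13+/+ and 0.49 ± 0.07 in IPO13-/- cells (edgeR FDR 0.91 and 2.4e-06). The interaction of 0.50 ± 0.10 (edgeR FDR 0.0024) was not called without either untreated IPO13-/- library.

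Hexa, the alpha subunit of beta-hexosaminidase, lies at chr9:59539540-59565109 on the plus strand. It went from 72.3 and 72.3 to 79.5 and 79.2 CPM in IPO13+/+ and from 69.4 and 66.4 to 96.2 and 98.1 CPM in IPO13-/- cells. The log2 fold changes were 0.13 ± 0.04 and 0.52 ± 0.04 (edgeR FDR 0.022 and 2.4e-10), the first lost without either stressed IPO13+/+ library, and the interaction was 0.38 ± 0.06 (edgeR FDR 0.00034). Gla, alpha-galactosidase A, lies at chrX:134588149-134601125 on the minus strand. It stood at 34.2 and 35.8 CPM in untreated and 39.6 and 41.4 CPM in stressed IPO13+/+ cells, and at 41.1 and 40.7 CPM in untreated and 58.7 and 56.2 CPM in stressed IPO13-/- cells. The stressed IPO13-/- pair was the highest for both genes. For Gla the log2 fold changes were 0.21 ± 0.05 and 0.49 ± 0.05 (edgeR FDR 0.0017 and 4.4e-09), the first lost without the second stressed IPO13+/+ library. Its interaction of 0.28 ± 0.07 (edgeR FDR 0.021) was not called with limma-voom, DESeq2 or library totals, or without any 1 of 5 libraries.

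Psap, the precursor of the saposins that help glycosidases act on lipids, rose by 0.13 in IPO13+/+ and 0.17 in IPO13-/- cells on the log2 scale and was higher in IPO13-/- cells by 0.16 without and 0.19 after stress. Glb1, beta-galactosidase, rose by 0.17 and 0.19 and did not differ past the threshold between genotypes. For both genes the rise was lost without the first stressed IPO13+/+ library in IPO13+/+ cells and without the first untreated IPO13-/- library in IPO13-/- cells. Npc2, the soluble carrier that hands cholesterol to NPC1, changed by 0.01 in IPO13+/+ cells, which did not pass, and rose by 0.33 in IPO13-/- cells, with an interaction of 0.32 that passed, though not without the first stressed IPO13+/+, the first untreated IPO13-/- or the second stressed IPO13-/- library.

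Proton pump subunits rose together in IPO13-/- cells. Atp6v1h, a regulatory subunit of the peripheral V1 sector at chr1:5070018-5162529 on the plus strand, stood at 107 and 107 CPM in untreated and 106 and 106 CPM in stressed IPO13+/+ cells, and at 87.0 and 91.7 CPM in untreated and 103 and 103 CPM in stressed IPO13-/- cells. The untreated IPO13-/- pair was again the lowest. The log2 fold change in IPO13-/- cells was 0.21 ± 0.04 and the untreated difference -0.26 ± 0.04 (edgeR FDR 0.00042 and 1.2e-05). Its interaction of 0.22 ± 0.06 (edgeR FDR 0.04) was the weakest called and was lost under 13 of the alternatives, among them every other scaling, limma-voom and DESeq2. Atp6v0d1, of the membrane V0 sector, rose by 0.16, a call lost without the first stressed IPO13+/+ library, and by 0.44, and Atp6v1a, the catalytic subunit, changed by 0.03 in IPO13+/+ cells, which did not pass, and rose by 0.23 in IPO13-/- cells, while the interaction of 0.20 ± 0.06 did not pass (edgeR FDR 0.055).

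The 39 genes were set beside 144 further genes of the same pathways in 6 lists, which were drawn up with earlier results of these data known. Of the 144, 23 rose in IPO13+/+ (16.0%, beside 11.5% of all genes) and 54 in IPO13-/- cells (37.5%, beside 14.9%), and 22 and 14 fell, beside 13.8% and 14.4% of all genes. The interaction passed for 30 (20.8%, beside 2.01%), all in the direction of a larger rise in IPO13-/- cells, and for 0 in the other. Among the 15 other proton pump subunits, 11 rose in IPO13-/- and 2 in IPO13+/+ cells, and the interaction passed for 8. Of the 36 other lysosomal enzymes 17 and 6 rose, and of the 25 other proteins of the lysosomal membrane 14 and 6. Of the 26 other core autophagy genes 4 and 2 rose (15.4% and 7.69%), shares near or below those of all genes. Among the 12 other cargo receptors 1 rose and 2 fell in IPO13-/- cells, and 0 rose and 7 fell in IPO13+/+ cells. Of the 30 regulators of TFEB and TFE3, 7 rose in each genotype, while 6 fell in IPO13+/+ and 4 in IPO13-/- cells. Among these 30 the interaction passed for 6, all in the direction of a larger rise in IPO13-/- cells.

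**Figure D5:**
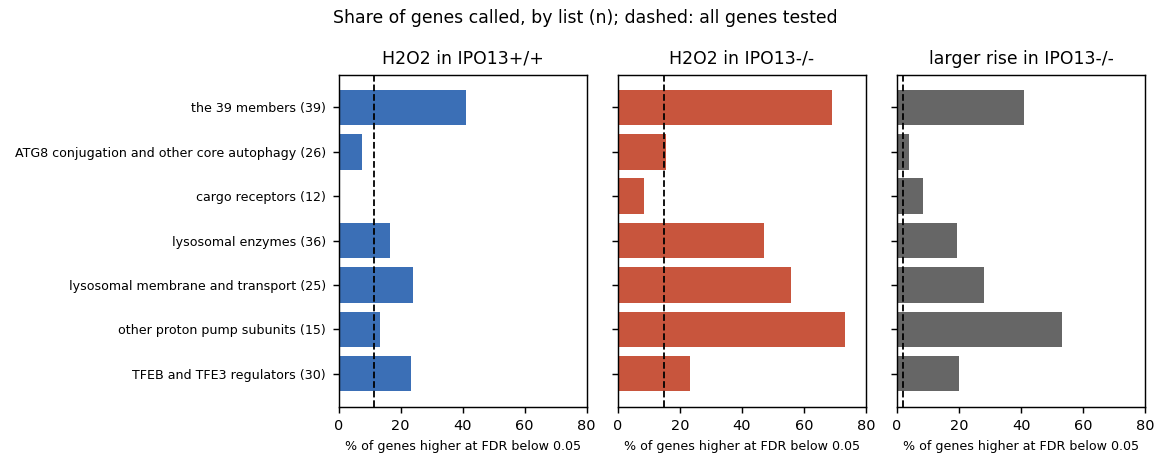
Bars give, for the 39 genes and each of the 6 wider lists, the share of genes that rose at an FDR below 0.05 in IPO13+/+ cells, in IPO13-/- cells and in the interaction, with a dashed line at the share of all genes tested. The other proton pump subunits reach 73.3% in IPO13-/- against 13.3% in IPO13+/+ cells, and other core autophagy genes, at 15.4% and 7.69%, lie near or below the dashed lines at 14.9% and 11.5%.

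The largest changes within these lists were few. In IPO13+/+ cells Man2b1, lysosomal alpha-mannosidase, went from 52.4 and 51.8 to 83.7 and 83.3 CPM, and Foxo3, a transcription factor of autophagy genes, from 42.3 and 40.4 to 62.5 and 62.0 CPM. Naglu, at 0.57 and 0.70 CPM before and 0.90 and 0.95 after, rested on few reads and was not called without the first untreated or either stressed IPO13+/+ library. In IPO13-/- cells Gpnmb, a lysosomal membrane glycoprotein, went from 2.443 and 2.303 to 5.07 and 5.37 CPM, Ctns, the cystine exporter, from 22.2 and 22.9 to 42.7 and 41.3 CPM, and Flcn, a regulator of TFEB and TFE3 at the lysosome, from 56.7 and 58.1 to 104 and 95.2 CPM. Between genotypes the 3 widest differences were those of Arsb, Ctsh and Gpnmb without stress (log2 difference 1.18, 1.09 and -1.04), with Arsb and Ctsh under 1.4 CPM, and those of Arsb, Aga and Manba after it (1.13, 1.09 and 0.94). Manba, beta-mannosidase, stood at 105 and 108 CPM in untreated IPO13+/+ cells and 198 and 197 in untreated IPO13-/- cells.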

How the data were processed

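The authors mapped paired-end reads to mm10 and counted them on genes. STAR 2.3.1 and HTSeq are credited to the submitters' processing notes, while the annotation and strand setting are not given in the sources used here. The deposited raw counts, 1 table per library, were used for all tests, and the deposited CPM were only checked against them. Rows naming no gene: 0. The sources differ on sequencer model, lanes and read length.

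The 19424 genes with at least 1 count were scaled with TMM factors and fitted in 1 edgeR 4.0.16 quasi-likelihood model of all 8 libraries (R 4.3.3). SEs are the absolute log2 fold change over the square root of F. The biological coefficient of variation was 3.36%. Noise differed between groups. Between the 2 libraries of a group, over genes with enough reads, the mean chi-square per gene was 15 in untreated IPO13+/+ cells. It was 2.26 in stressed IPO13+/+, 4.58 in untreated IPO13-/- and 6.59 in stressed IPO13-/- cells. All groups shared 1 estimate of the spread, so leaving out an untreated IPO13+/+ library also changes that estimate. A call kept there is not thereby independent of those libraries. An exact permutation test of 2 against 2 libraries cannot go below 0.333, so none was run. The fit was also run on simulated counts with independent libraries and the same spread in every group. That run cannot test unequal noise between groups or libraries from a shared culture, and no conclusion is drawn from it.

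Every library is given for members past 2-fold, for the 6 largest called in each comparison without overlap, for up to 6 interactions, and for Tfeb, Tfe3, Sqstm1, Lamp1 and Neu3. Other genes given by library (Ulk1, Atg12, Map1lc3b, Nbr1) were chosen after their values were seen. Of the wider lists, the 3 largest changes per comparison are named. Members and lists were chosen with earlier results of these data known. Positions come from GENCODE M21, promoters from RefSeq. Alternatives were RLE factors, upper-quartile factors, library totals, filterByExpr, no filter, limma-voom (limma 3.58.1), DESeq2 1.42.0, a replicate block, only the libraries compared, a least change of 1.2-fold and leaving out each library. Intervals of shares were not computed. Protein sequences were not used here.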

Additional observations from a re-analysis of the deposited data

Results flagged for a closer look

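The interaction term of the edgeR model passed for 16 of the 39 genes, against 2.01% of all genes. Each of the 16 had the larger rise in IPO13-/- cells. As given above, most of these calls were lost without 1 library or another. Only Sqstm1 and Ctsl passed when the difference had to exceed 1.2-fold. On the log2 scale the differences were 0.577 for Sqstm1, 0.504 for Neu1, 0.468 for Ctsl, 0.457 for Ctsa, 0.381 for Hexa, 0.361 for Gabarapl1, 0.326 for Cln3, 0.321 for Uvrag and 0.318 for Npc2. They were 0.297 for both Map1lc3b and Ctsd, 0.280 for Gla, 0.279 for Atp6v0d1, 0.268 for Ctsb, 0.236 for Lamp1 and 0.222 for Atp6v1h. Among the wider lists the 3 largest were Gpnmb at 0.663, Rragc, which takes part in nutrient signalling at the lysosome, at 0.465, and Ctns at 0.453.

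Rragc stood at 84.2 and 80.02 CPM in untreated IPO13+/+ cells, 96.8 and 95.7 after stress, 70.9 and 72.6 in untreated IPO13-/- cells, and 120 and 112 after stress. Gpnmb stood at 5.16 and 4.67 CPM in untreated and 6.66 and 6.93 CPM in stressed IPO13+/+ cells. Its interaction was not called without either untreated IPO13-/- library, nor that of Ctns without the first of them.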

How the results depend on the processing

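No called gene of the 39 changed sign under any alternative scaling, and no result reversed. With a least change of 1.2-fold the counts of higher and lower genes were 4 and 0 after stress in IPO13+/+ cells, 14 higher in IPO13-/- cells, 1 and 3 between untreated and 6 and 0 between stressed genotypes, and 2 for the interaction. Library totals gave 2 lower after stress in IPO13-/- cells and 5 lower in untreated IPO13-/- cells, moving the share of called genes that were higher there from 42.9% to 72.2%. Upper-quartile factors gave 1 lower in stressed IPO13-/- cells, and fitting only the libraries compared gave 0 lower in IPO13+/+ cells. In a model that blocks on replicate number, 2 fell in IPO13+/+ and 1 in IPO13-/- cells, and the interaction passed for 19. Deviations of same-numbered libraries correlated between -0.0596 and 0.543 over 10235 genes, and no source says that the numbers mark shared cultures.

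Without 1 library, the counts ranged from 10 to 16 higher, 0 to 2 lower and 0 to 1 past 2-fold after stress in IPO13+/+ cells. They ranged from 22 to 27 higher, 0 to 1 lower (1 without either untreated IPO13+/+ library) and 0 to 1 past 2-fold in IPO13-/- cells, from 6 to 10 higher and 6 to 11 lower between untreated genotypes, from 17 to 26 higher and 1 to 2 lower between stressed genotypes (1 without either stressed IPO13+/+ or the second stressed IPO13-/- library), and from 4 to 17 for the interaction. DESeq2 and limma-voom each kept 13 of the 16 interactions. Over single genes, 1807 of the recomputed results kept their side of the threshold, 137 fell below it and 14 rose above it; the cause was not tested. Those recomputed results cover the members named by rule and the largest changes of the wider lists, whether or not called in the main fit. They therefore do not give the share of calls that was kept. Depth, at 131 reads or more, limits Neu3 most.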
